A study of Mus musculus with 18 samples.

Results

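Day 8 of a transition from primed to naive pluripotency was compared with its start: the 3 D8 libraries against the 3 EpiSC libraries, 6 of the 18 mouse RNA-seq libraries in the series. The libraries were assigned to groups by their labels. EpiSC (epiblast stem cells, day 0) are labelled primed stem cells. D8 cells carry the label transient, as do the cells of D3 (day 3) and D5 (day 5), and rES and ESC, labelled naive stem cells and mESC, are the naive groups of the series, each with 3 libraries. All groups are described as stem cells from mouse embryo. The labels name no strain, line, genotype, medium, agent or feeder layer for any of them, so what the groups share beyond this is not known here. The labels also do not say whether the 3 libraries of a group came from separate cultures, and the p-values given here therefore rest on a spread between libraries that may be technical.

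Primed cells resemble the epiblast after implantation, are kept by FGF and Activin signals, and express Fgf5, Otx2 and Dnmt3b. Naive cells resemble the epiblast before implantation, respond to LIF through STAT3, and express Klf4, Esrrb and Zfp42. Pou5f1 and Sox2 serve both states. The title of the series names Cpt1a, which joins long-chain fatty acids to carnitine at the outer mitochondrial membrane so that they can enter mitochondria and be oxidised, and lipid genes are therefore described at length below.

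RNA was total RNA depleted of ribosomal RNA, so transcripts without a poly(A) tail were measured too. Levels are in CPM, counts scaled to a common library total after correction for library composition and not corrected for gene length, so they compare a gene between libraries and not one gene with another. The EpiSC libraries held 61901431 to 65751549 counts. The D8 libraries held 64996458, 101607352 and 63487097 counts in replicates 1 to 3, replicate 2 being the deepest of all 18. A mean of 15993 ± 266 symbols had a count in EpiSC and 18015 ± 311 at D8 (SD, n = 3 each). Depth alone did not order the D8 libraries: replicate 3 had the most, 18248, and replicate 2 had 18136, or 18050 when its counts were thinned to 63.2% to match the other two. A count of 12, taken as the floor at 3 times the commonest low count of 4, corresponded to 0.190 CPM in EpiSC and 0.169 CPM at D8. Floors and the fold bounds made from them cover counting error only.

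The change was broad. Of 17545 genes tested with edgeR's quasi-likelihood test at an adjusted p of 0.05, 7434 (42.4%) were higher at D8 and 6048 (34.5%) were lower, 76.8% in all. Of these, 5597 (31.9%) were at least 2-fold higher and 3612 (20.6%) at least 2-fold lower. The ranges of EpiSC and D8 did not overlap for 79% of genes (42.7% higher and 36.3% lower at D8). The median log2 difference over all tested genes was 0.18, with quartiles of -0.88 and 1.81. Every list below is to be read against those shares. Where D8 is set beside D5 or rES, the same test called 25.1% of genes higher and 22% lower at D8 than at D5, 38.4% higher and 32.7% lower at D8 than in rES, and 37.7% higher and 34.3% lower at D5 than in EpiSC. These comparisons share libraries. RNA came from whole cultures, so fewer cells of a type and less RNA per cell cannot be told apart in any value given here.

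The 3 D8 libraries differed more among themselves than the libraries of the other groups. Their pairwise correlations of log2 levels were 0.974 to 0.978, the lowest of the 6 groups, and their common biological coefficient of variation was 0.239, against 0.116 to 0.172 elsewhere. The tests used a spread estimated over all 18 libraries together, with a common coefficient of 0.167. The p-values and standard errors of D8 comparisons may therefore understate the spread at D8. The differences followed gene groups. Replicate 3 had the highest level of all 20 naive factors and markers, of 11 of 12 shared pluripotency factors and of 13 of 14 germline genes. Summed over the naive list, D8 replicates 1 to 3 held 1750, 2148 and 3177 CPM, against 178 to 191 CPM in EpiSC. Replicate 1 had the highest level of all 7 Serpinb9 genes, 17 of 21 lysosomal genes, 18 of 22 cholesterol genes and 17 of 19 epithelial genes. Replicate 2, the deepest, had the highest level of 14 of 16 fibroblast markers. Such counts are to be read against all 7659 genes with a mean of at least 20 CPM at D8. Replicate 1 was highest for 3200 of them, replicate 2 for 1852 and replicate 3 for 2607. The D8 values of these lists are therefore given library by library, and the part that library makeup plays in any result was not tested.

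**Figure D1:**
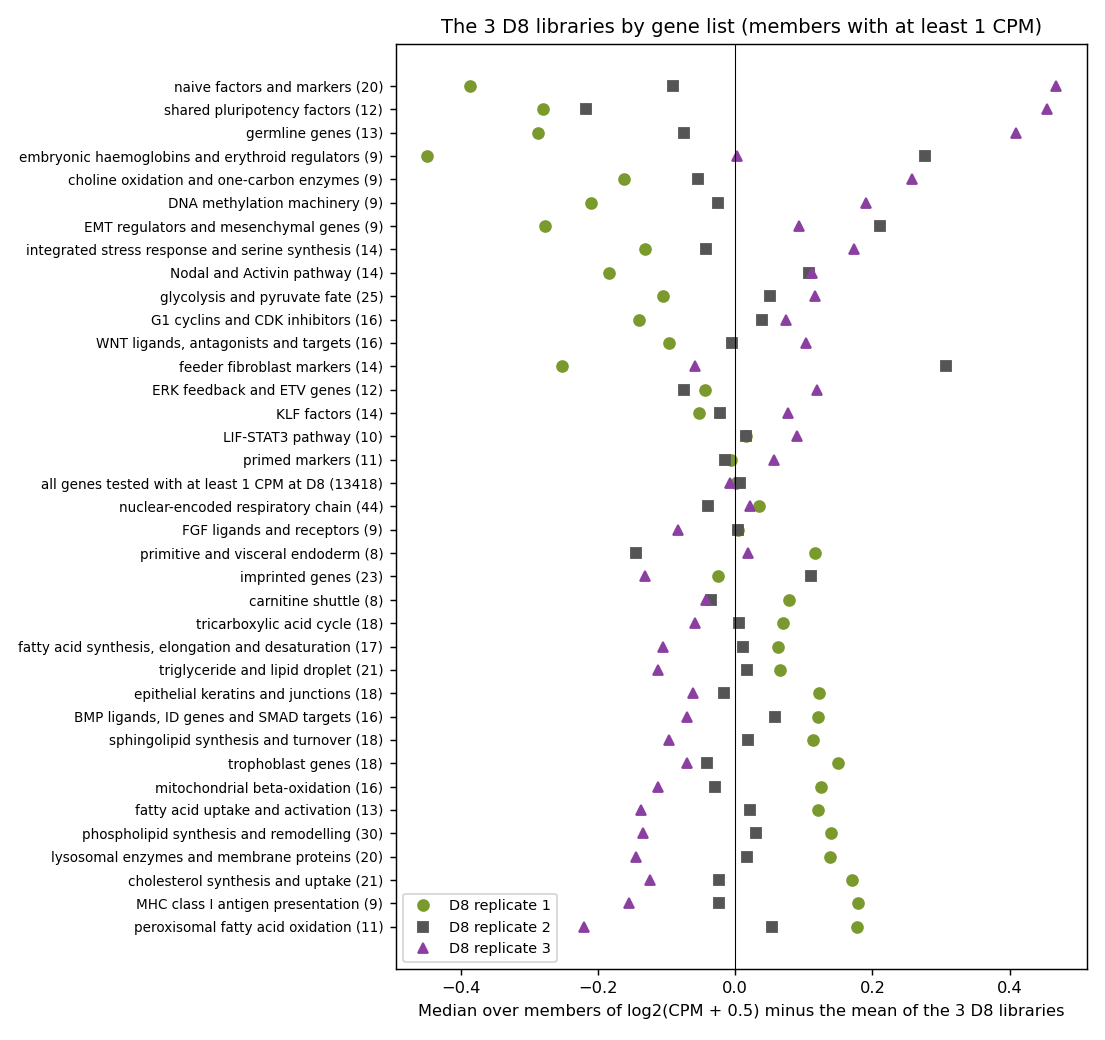
Position of each D8 library within its group, by gene list. Each point is the median over list members of log2(CPM + 0.5) in 1 library minus the mean of the 3 D8 libraries (members with at least 1 CPM at D8, number in brackets); replicate 3 lies at 0.47 for the naive list and replicate 1 at -0.39, while over all 13418 such genes the 3 libraries lie between -0.01 and 0.01.

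Naive genes were high at D8 in every library. Of 20 naive factors and markers 19 were higher than in EpiSC, Gbx2 was lower, and the median log2 difference was 6.20, or 5.93 with the 4 genes that lacked a count in EpiSC set at their bound. Zfp42 (Rex1), a classical marker of naive cells, had no count in EpiSC and 40.3, 56.0 and 87.3 CPM in D8 replicates 1 to 3, at least 322-fold higher (adjusted p = 3.38e-13, edgeR). Esrrb, an orphan nuclear receptor of the naive network, stood at 3.56, 1.996 and 4.20 CPM in EpiSC and at 133, 167 and 261 CPM at D8 (log2 difference 5.83 ± 0.31, adjusted p = 5.94e-12). Nanog, a homeodomain factor present in both states, was at 41.7, 47.1 and 33.8 CPM and reached 207, 283 and 346 CPM (log2 difference 2.77 ± 0.16, adjusted p = 2.78e-11). In each of these 3 genes the lowest D8 library was replicate 1 and the highest replicate 3, and no D8 value reached down to the EpiSC range.

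The zinc finger factors Klf2, Klf4 and Klf5 all rose. Klf2 moved from 1.56, 2.33 and 2.15 CPM to 104, 131 and 290.3 CPM (log2 difference 6.42 ± 0.35, adjusted p = 7.81e-12), and its D8 replicate 3 lay more than 2-fold above both others. Klf4 moved from 5.91, 5.45 and 8.13 to 109.8, 106 and 176 CPM (log2 difference 4.32 ± 0.21, adjusted p = 1.32e-12). Klf5, already present in EpiSC at 18.7, 14.6 and 20.2 CPM, reached 46.0, 40.2 and 56.4 CPM, a log2 difference of 1.41 ± 0.14. Tbx3, a T-box factor that sustains self-renewal, went from a count in 1 of 3 EpiSC libraries, 0.156 CPM, to 112, 115 and 187 CPM. Tfcp2l1, a transcription factor downstream of LIF, went from 11.4, 8.65 and 10.4 to 239, 287 and 438 CPM. Nr0b1 (Dax1), without a count in EpiSC, reached 25.5, 37.7 and 41.7 CPM, at least 184-fold higher, and Dppa5a went from 0.273, 0.555 and 0.919 to 326, 402 and 599 CPM (log2 difference 9.49 ± 0.35). Gbx2, a homeobox gene of the list, ran against the others, from 47.4, 41.3 and 54.1 CPM in EpiSC to 4.22, 2.27 and 7.39 CPM at D8 (log2 difference -3.37 ± 0.28, adjusted p = 3.85e-09).

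Naive genes had not reached the level of rES. All 20 were lower at D8 than in rES, and 19 of 20 were higher at D8 than at D5, the exception, Klf4, averaging 106 ± 21.2 CPM at D5 and 130.4 ± 39.4 CPM at D8 (SD, n = 3 each). Zfp42 averaged 3.49 ± 0.550 CPM at D5, 61.2 ± 23.9 at D8, 265 ± 3.99 in rES and 318 ± 4.32 in ESC. Nanog averaged 16.8 ± 2.84 CPM at D5, below EpiSC, then 279 ± 69.7 CPM at D8 and 829.6 ± 5.11 CPM in rES. Even the highest D8 library, replicate 3, lay below the rES mean for Nanog and Zfp42.

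**Figure D2:**
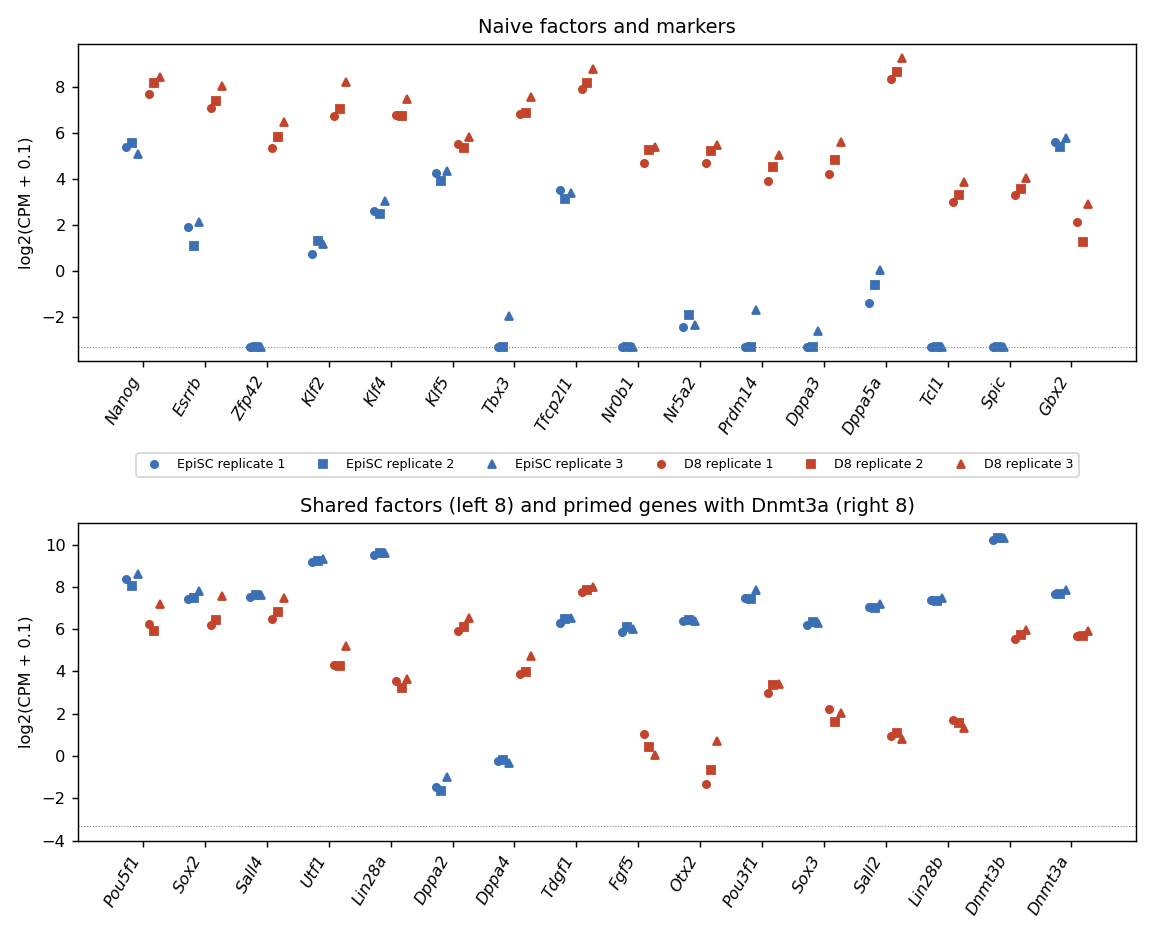
Naive genes (upper panel) and shared and primed genes (lower panel) in the 3 EpiSC and 3 D8 libraries, as log2(CPM + 0.1); each symbol is 1 library and the dotted line marks 0 CPM. All naive genes shown but Gbx2 lie higher at D8, replicate 3 (triangles) being the highest D8 value of each, and all primed genes lie lower.

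The shared pluripotency factors divided, 3 of 12 higher and 9 lower than in EpiSC (median log2 difference -1.51). Pou5f1 (Oct4), required in both states, was at 335, 266 and 392 CPM in EpiSC and at 75.2, 59.2 and 145 CPM at D8 (log2 difference -1.83 ± 0.37, adjusted p = 0.000196). All 3 D8 libraries lay below the EpiSC range, with replicate 3 the highest of them. Sox2, its partner on DNA, was at 171, 175 and 220.4 CPM in EpiSC and at 72.8, 86.0 and 190.2 CPM at D8 (log2 difference -0.70 ± 0.27, adjusted p = 0.0247). D8 replicate 3 lay inside the EpiSC range, and the Sox2 call was lost with DESeq2 (adjusted p = 0.0726), with the 2 groups fitted alone (0.0722), without EpiSC replicate 3 (0.0909), without D8 replicate 1 (0.156) and without D8 replicate 2 (0.116). Lin28a, an RNA-binding protein that blocks let-7 maturation, fell from 731, 776 and 789 to 11.6, 9.28 and 12.3 CPM (log2 difference -6.11 ± 0.12, adjusted p = 6.51e-17), and the chromatin-bound factor Utf1 from 579, 603 and 635 to 19.6, 19.2 and 37.2 CPM (log2 difference -4.58 ± 0.20). Dppa2 and Dppa4, which act as a pair on chromatin, went the other way. Dppa2 stood at 0.257, 0.222 and 0.405 CPM in EpiSC and 59.2, 68.7 and 93.1 CPM at D8, and Dppa4 at 0.755, 0.776 and 0.685 and 14.5, 15.9 and 26.8 CPM (log2 differences 7.82 ± 0.20 and 4.63 ± 0.30). Tdgf1, a co-receptor for Nodal, also rose, from 77.7, 87.9 and 92.0 to 219, 233 and 255 CPM (log2 difference 1.46 ± 0.08, adjusted p = 7.26e-12). Against D5, 10 of the 12 were higher at D8 and Lin28a and Trim71 lower, Pou5f1 rising from a D5 mean of 7.01 ± 4.64 to 93.2 ± 45.8 CPM. Against rES, 11 were lower.

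All 14 tested primed markers were lower at D8, with a median log2 difference of -4.45, and in all 14 the groups did not overlap. The 15th, Cer1, was too low to test. Fgf5, a growth factor of the primed epiblast, fell from 58.8, 68.9 and 65.0 to 1.94, 1.26 and 0.927 CPM (log2 difference -5.52 ± 0.45, adjusted p = 2.88e-09). Otx2, a homeodomain factor that directs exit from the naive state, fell from 84.9, 86.3 and 84.4 to 0.293, 0.540 and 1.56 CPM (log2 difference -6.71 ± 0.39, adjusted p = 1.91e-11), and Pou3f1 (Oct6) from 178, 173 and 234 to 7.80, 10.3 and 10.6 CPM (log2 difference -4.35 ± 0.17, adjusted p = 1.4e-13). These markers were present in all 3 EpiSC libraries, as the label primed says. Lin28b, the homologue of Lin28a, fell from 169, 162 and 175 to 3.13, 2.89 and 2.39 CPM, and Sall2 from 134, 128 and 147 to 1.81, 2.05 and 1.62 CPM. The neural and epiblast factor Sox11 stood at 179, 180.3 and 194 CPM in EpiSC and at 4.64, 4.99 and 4.20 CPM at D8. Zic2 and Otx2 were highest in D8 replicate 3 and Fgf5 and Lin28b in replicate 1, so the order of the D8 libraries seen for naive genes did not run through this list, of which 7 of 14 were highest in replicate 3. Over all 7659 genes at 20 CPM or more at D8, 2607 were highest in replicate 3.

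DNA methylation genes changed in both directions. Dnmt3b, a de novo methyltransferase abundant in primed cells, fell from 1196, 1263 and 1284 to 46.3, 52.8 and 63.1 CPM (log2 difference -4.53 ± 0.10, adjusted p = 1.1e-16), and Dnmt3a, the other de novo enzyme, from 203, 204 and 232 to 50.6, 51.1 and 60.1 CPM (log2 difference -1.98 ± 0.09). Uhrf1, which brings the maintenance enzyme to replicated DNA, fell from 326, 321 and 352 to 106, 129.6 and 184 CPM, while Dnmt1, that enzyme, was at 313, 311 and 372 CPM in EpiSC and 292, 287 and 353 CPM at D8 and was not called (log2 difference -0.10 ± 0.09, adjusted p = 0.329). Of the genes that oxidise methylated cytosine, Tet2 rose from 7.40, 5.67 and 7.21 to 18.6, 38.6 and 54.8 CPM, Tet3 rose from 45.2, 41.6 and 53.1 to 151, 145 and 144 CPM, and Tet1 was not called at 119, 109 and 125 against 79.8, 97.7 and 172 CPM (adjusted p = 0.966). Tet1 and Tet2 differed by more than 2-fold between D8 replicates 1 and 3. Without replicate 3, Dnmt1 and Tet1 were both called lower (log2 differences -0.20 and -0.40, adjusted p = 0.0403 and 0.0167). Dnmt3l, a cofactor without catalytic activity, went from a count in 1 EpiSC library, 0.561 CPM, to 7.02, 16.6 and 11.05 CPM.

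All 14 germline genes, which in somatic cells are held silent by promoter methylation and by repressors that bind E-boxes, were higher at D8 without overlap (median log2 difference 6.50, or 4.70 with the 5 genes that lacked a count in EpiSC at their bound). Dazl, an RNA-binding protein of germ cells, went from 0, 0 and 0.343 CPM in EpiSC to 114, 136 and 184 CPM at D8 (log2 difference 9.95 ± 0.45, adjusted p = 7.95e-13). Sohlh2, a helix-loop-helix factor of the germline, went from no count to 18.04, 16.3 and 34.3 CPM, at least 121-fold higher. Hormad1, which coats meiotic chromosomes, went from 0, 0 and 0.0934 to 15.6, 23.8 and 35.1 CPM (log2 difference 8.64 ± 0.45, adjusted p = 2.51e-10). In all 3 genes D8 replicate 3 was the highest. At D5 they averaged 0.858 ± 0.181, 0.0169 and 0 CPM, 13 of the 14 were higher at D8 than at D5, and 11 were lower at D8 than in rES. Tex19.1, a placental and germline gene, stood at 0.851, 0.871 and 1.40 CPM in EpiSC and 86.5, 81.7 and 96.1 CPM at D8, and Stk31 at 0, 0 and 0.125 and 8.84, 10.6 and 13.8 CPM. Taf7l, a paralogue of the general transcription factor subunit Taf7, went from no count to 4.77, 4.998 and 7.73 CPM, at least 30.7-fold higher.

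Since all 14 moved together, the 250 bases before each of their listed RefSeq transcript starts were searched for the E-box CACGTG, whose letters read the same on both strands. A gene was counted if any of its listed starts had a match. It was found for 9 of 14 germline genes (64.3%), against 6.86% of 27025 genes with a promoter in the table, 9.27% of those tested, 10.3% of those called higher and 9.26% of those called lower (RefSeq, GRCm38.p6). The 9 were Ddx4, Sycp1, Sycp3, Mael, Tdrd1, Taf7l, Hormad1, Stk31 and Slc25a31. A match describes letters only. Germline genes were described above as repressed through E-boxes, so a high share could be foreseen when the list was made. The shares were not matched for CpG content, and the part of the E-box in these changes was not tested. The promoters of Hormad1 (chr3:95559427-95559676, plus strand) and Taf7l (chrX:134476491-134476740, minus strand) are shown 5′ to 3′, the E-box in capitals, because one holds 2 copies, 20 and 57 bases before the start, and the other 1 copy, 49 bases before it.
Hormad1: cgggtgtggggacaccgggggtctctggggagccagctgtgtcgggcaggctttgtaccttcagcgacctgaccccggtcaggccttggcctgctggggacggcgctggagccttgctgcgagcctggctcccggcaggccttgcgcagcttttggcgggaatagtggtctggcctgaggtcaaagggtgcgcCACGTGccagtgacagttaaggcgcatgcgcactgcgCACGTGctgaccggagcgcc
Taf7l: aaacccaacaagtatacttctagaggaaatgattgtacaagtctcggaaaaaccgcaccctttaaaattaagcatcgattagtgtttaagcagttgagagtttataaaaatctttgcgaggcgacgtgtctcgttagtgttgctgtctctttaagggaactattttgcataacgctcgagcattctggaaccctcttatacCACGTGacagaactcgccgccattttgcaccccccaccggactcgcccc

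Genes of cells resembling the 2-cell embryo were low but present at D8. Of 9 tested, 8 were higher than in EpiSC, among them Zscan4c, which went from no count to 2.20, 2.24 and 3.63 CPM, and Zscan4f, from no count to 2.65, 2.66 and 4.37 CPM. The list summed to 11.8, 10.9 and 18.6 CPM in the 3 D8 libraries. These genes have near-identical copies, so the split of reads among them is uncertain. The labelled rES group held more, 7 of the 9 being lower at D8 than in rES.

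Signalling genes were taken by pathway. Of the FGF list, 6 of 12 were higher and 5 lower, shares near those of all tested genes. The ligand Fgf4 rose from 46.1, 49.4 and 50.3 to 64.1, 95.3 and 119 CPM (log2 difference 0.93 ± 0.20, adjusted p = 0.000422), Fgf5 fell as above, and the ligand Fgf15 fell from 17.5, 19.5 and 17.0 to 0.537, 0.387 and 0.314 CPM. The receptor Fgfr1 rose from 213, 205 and 215 to 366, 375 and 339.6 CPM and Fgfr2 from 15.5, 13.8 and 14.9 to 32.6, 35.6 and 29.5 CPM. Genes that ERK switches on, many of which feed back on it, were mostly lower: 12 of 15 fell, 1 rose and Ier3 and Fosl1 were not called, with a median log2 difference of -3.10. Dusp6, a phosphatase that inactivates ERK, fell from 515, 459 and 456 to 1.73, 2.14 and 1.85 CPM (log2 difference -7.93 ± 0.19, adjusted p = 2.5e-16). Spry4, an inhibitor of the pathway, fell from 70.6, 65.7 and 80.7 to 0.309, 0.305 and 0.220 CPM, and the ETS factor Etv4 from 88.2, 95.8 and 107 to 0.895, 0.580 and 1.43 CPM (log2 differences -7.86 ± 0.22 and -6.64 ± 0.30). The 1 riser was Dusp5, a nuclear ERK phosphatase, which went from 33.1, 29.6 and 35.3 to 74.2, 71.2 and 60.8 CPM (log2 difference 1.07 ± 0.11). Against D5, 10 of the 15 were higher at D8, at levels that differed between genes. Dusp6 averaged 0.769 ± 0.303 CPM at D5 and 1.91 ± 0.211 CPM at D8, and Dusp5 39.9 ± 3.11 and 68.7 ± 7.05 CPM.

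Of 11 genes of the LIF-STAT3 pathway 10 were higher at D8 and 1 was not called (median log2 difference 1.52). The shared receptor subunit Il6st (gp130) rose from 44.5, 38.3 and 46.5 to 119.7, 139 and 135 CPM, the LIF receptor Lifr from 14.6, 11.9 and 12.8 to 24.8, 32.8 and 33.2 CPM, and Stat3 from 25.3, 26.8 and 27.5 to 126, 131 and 118 CPM (log2 difference 2.24 ± 0.07, adjusted p = 1.06e-14). Targets of STAT3 also rose, the inhibitor Socs3 from 16.7, 12.2 and 19.2 to 53.7, 47.2 and 58.2 CPM and the NF-kappaB cofactor Bcl3 from 0.241, 0.0792 and 0.405 to 22.95, 21.8 and 33.9 CPM (log2 differences 1.73 ± 0.14 and 6.59 ± 0.26). None of these D8 libraries overlapped with EpiSC. The Stat3 mean at D8, 125 ± 6.52 CPM, lay beside 129.8 ± 1.26 CPM in rES and was not called against it, while Bcl3 was lower at D8 than in rES, 26.2 ± 6.63 against 91.8 ± 1.61 CPM.

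The BMP list, with ligands, ID genes and SMAD targets, gave 15 of 18 higher and 1 lower (median log2 difference 1.48). Among ligands, Bmp4 rose from 1.17, 0.903 and 1.20 to 5.52, 8.13 and 7.28 CPM. The homeobox targets Msx2 and Dlx3 rose from 0.257, 0.238 and 0.576 to 115, 109 and 91.1 CPM and from 0.690, 0.871 and 1.37 to 124, 101 and 111 CPM (log2 differences 8.07 ± 0.20 and 6.79 ± 0.23). Id1, a direct SMAD target, rose from 6.34, 7.37 and 8.44 to 19.2, 17.1 and 12.6 CPM. The inhibitor Smad6 fell slightly, from 8.48, 10.6 and 10.3 to 7.10, 6.99 and 7.10 CPM (log2 difference -0.47 ± 0.11, adjusted p = 0.000605), and without D8 replicate 2 another member, 2 in all, was called lower. Of the 18, 10 were lower at D8 than at D5 and 1 was higher.

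The Nodal and Activin list, 14 genes, had 5 higher and 7 lower. Activin subunits Inhba and Inhbb rose, Inhbb from 0.112, 0.412 and 0.265 to 15.6, 18.6 and 19.8 CPM (log2 difference 5.94 ± 0.27). The ligand Nodal itself was at 20.6, 22.3 and 28.0 CPM in EpiSC and 19.4, 21.0 and 32.3 CPM at D8 and was not called (adjusted p = 0.871). The 2 Lefty genes, antagonists of Nodal, parted: Lefty1 fell from 48.9, 76.2 and 96.5 to 6.43, 15.2 and 15.4 CPM, and Lefty2 rose from 2.92, 4.37 and 4.83 to 20.9, 44.5 and 44.7 CPM (log2 differences -2.57 ± 0.28 and 3.17 ± 0.31). Foxh1, the DNA-binding partner of SMAD2 in this pathway, fell from 85.2, 87.6 and 97.2 to 5.34, 7.15 and 12.5 CPM.

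In the WNT list 13 of 19 were higher and 5 lower (median log2 difference 2.53). The ligand Wnt7b rose from 1.30, 1.27 and 2.04 to 182, 138 and 144 CPM (log2 difference 6.63 ± 0.27, adjusted p = 2.14e-13), the antagonist Dkk1 from no count to 7.02, 7.73 and 5.70 CPM, at least 35.9-fold higher, and the target Axin2 from 7.51, 6.24 and 9.13 to 26.8, 32.8 and 35.2 CPM. The DNA-binding effectors did not follow: Lef1 fell from 116, 112 and 108 to 2.05, 3.29 and 2.50 CPM, Tcf7 fell from 95.4, 94.5 and 91.5 to 21.7, 22.2 and 29.8 CPM, and Tcf7l1 was at 112, 118 and 119 and 74.1, 73.7 and 134 CPM and was not called (adjusted p = 0.103). D8 replicate 3 was the highest D8 library, and without it Tcf7l1 was called lower (log2 difference -0.65, adjusted p = 2.25e-05). Against D5, 10 of the 19 were lower at D8 and 3 higher, Dkk1 averaging 28.4 ± 0.675 CPM at D5 and 6.82 ± 1.03 CPM at D8.

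Most genes of fatty acid oxidation rose. Cpt1a (chr19:3322334-3385733, plus strand, GENCODE vM21 on GRCm38) was at 1.80, 1.43 and 1.62 CPM in EpiSC and at 73.5, 86.8 and 110.3 CPM at D8 (log2 difference 5.78 ± 0.13, adjusted p = 1.57e-16), with replicate 3 highest and replicate 1 lowest, as for Zfp42, Esrrb and Nanog. It averaged 42.2 ± 1.44 CPM at D5, 299.8 ± 11.7 in rES and 192 ± 3.11 in ESC, and D8 was called above D5 and below rES. Of the other members of the carnitine shuttle, the isoform Cpt1b was at 0.0642, 0.158 and 2.26 CPM in EpiSC and 6.58, 6.16 and 6.57 CPM at D8, and the neuronal isoform Cpt1c fell from 30.2, 33.1 and 33.3 to 20.5, 18.3 and 23.3 CPM (log2 difference -0.64 ± 0.10). The carrier Slc25a20, which moves acylcarnitines across the inner membrane, rose from 8.43, 9.44 and 11.1 to 65.5, 70.6 and 72.3 CPM (log2 difference 2.84 ± 0.12, adjusted p = 2.06e-13). Cpt2, which releases acyl-CoA inside the mitochondrion, rose from 53.0, 50.1 and 45.4 to 96.9, 82.4 and 64.3 CPM (log2 difference 0.71 ± 0.12, adjusted p = 4.05e-05), and the carnitine importer Slc22a5 from 15.5, 12.7 and 13.5 to 80.5, 64.1 and 55.1 CPM. In all, 7 of 8 shuttle genes were higher and Cpt1c was lower.

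Of 16 genes of mitochondrial beta-oxidation 14 were higher at D8 and Echs1 was lower (median log2 difference 1.35). Acadvl, the dehydrogenase for very long chains, rose from 11.8, 9.36 and 9.05 to 60.3, 47.5 and 43.2 CPM (log2 difference 2.32 ± 0.18, adjusted p = 1.4e-09), and Hadhb, a subunit of the trifunctional protein, from 34.2, 34.9 and 27.9 to 194, 178 and 128 CPM (log2 difference 2.36 ± 0.12). Echs1, the short-chain enoyl-CoA hydratase, fell from 129, 129.7 and 117 to 69.8, 64.9 and 69.9 CPM. In the peroxisome, where very long chains are shortened, 11 of 12 genes were higher and the transporter Abcd2 was lower (median log2 difference 2.34). The bifunctional enzyme Ehhadh rose from 2.12, 2.79 and 2.41 to 60.6, 59.4 and 41.6 CPM (log2 difference 4.45 ± 0.17, adjusted p = 7.9e-14). Abcd2 fell from 5.27, 5.64 and 2.58 to 0, 0.204 and 0.0629 CPM. These genes followed another order among the D8 libraries than Cpt1a: 12 of 16 mitochondrial and 9 of 12 peroxisomal members were highest in replicate 1. Over all 7659 genes at 20 CPM or more at D8, 3200 were highest in replicate 1. The mitochondrial and peroxisomal genes also stood otherwise against rES, with 11 of 16 and 9 of 12 higher at D8 than in rES, where Cpt1a was lower.

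Nuclear receptors that sense fatty acids changed as well. Pparg, a receptor for fatty acid ligands best known from fat cells and placenta, went from 0.0642, 0 and 0.389 to 215, 180.0 and 129 CPM (log2 difference 9.90 ± 0.46, adjusted p = 7.58e-12), and its partner Rxra from 32.5, 33.4 and 37.9 to 258, 223 and 204 CPM. Rxrg, another partner, went from 7.11, 8.13 and 8.14 CPM to no count in any D8 library, at least 46.2-fold lower. Ppara stood at 0.177, 0 and 0.296 and 1.35, 1.35 and 1.13 CPM. Pparg averaged 137 ± 7.40 CPM at D5 and had no count in rES. Among uptake and activation genes 10 of 15 were higher and 4 lower. The binding protein Fabp3 rose from 3.72, 3.25 and 4.66 to 508, 441 and 526 CPM (log2 difference 6.97 ± 0.30) and Fabp5 fell from 142, 161 and 188 to 88.4, 84.96 and 105 CPM. The transport protein Slc27a4 rose from 22.3, 20.8 and 24.96 to 191, 159 and 151 CPM and Slc27a2 fell from 79.5, 74.2 and 74.7 to 2.08, 3.16 and 3.63 CPM.

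**Figure D3:**
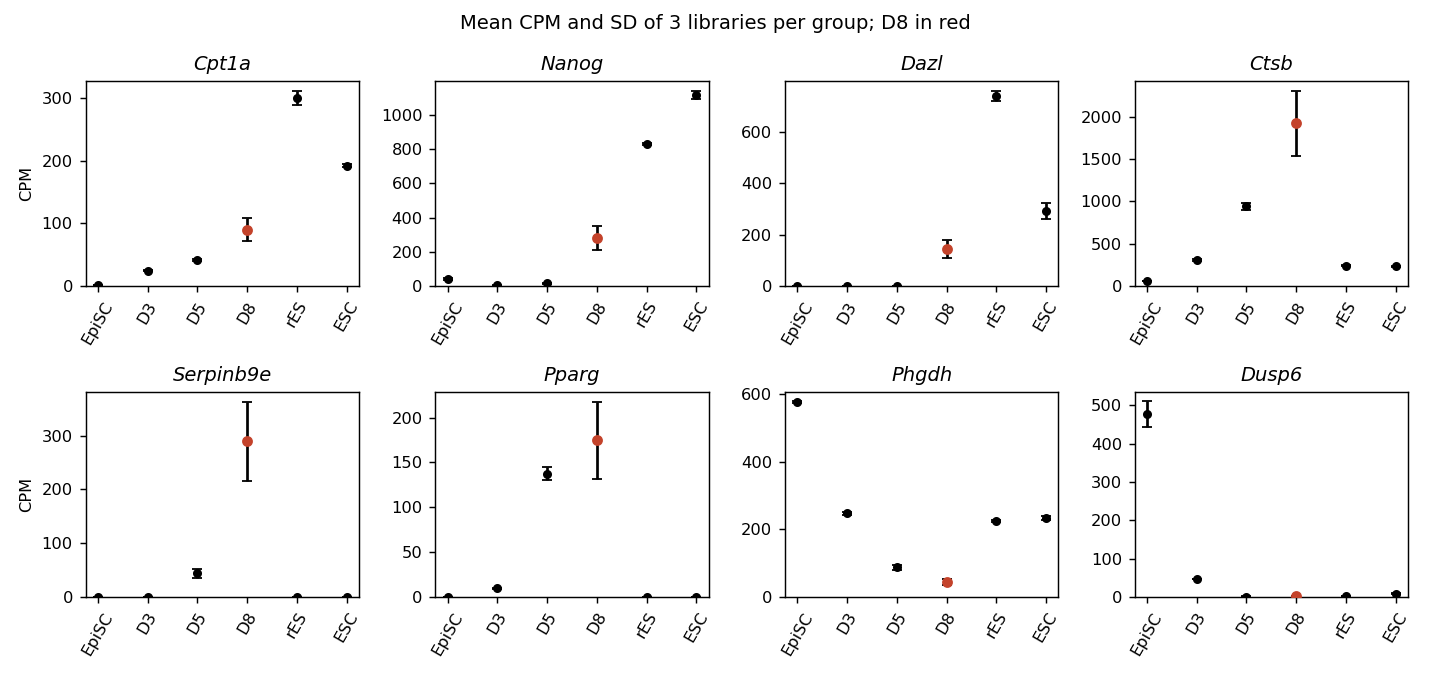
Mean CPM with SD of 3 libraries in the 6 groups for 8 genes of different lists, D8 in red, on linear axes that start at 0. Cpt1a, Nanog and Dazl lie between EpiSC and rES at D8, while Ctsb, Serpinb9e and Pparg are higher at D8 than in EpiSC and rES.

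Genes that make fatty acids did not rise as a list: 7 of 17 were higher and 9 lower (median log2 difference -0.58). The core enzymes fell modestly. Acly, which makes cytosolic acetyl-CoA, was at 706, 760.0 and 798 CPM in EpiSC and 517, 479 and 521 CPM at D8, Acaca, which carboxylates it, at 293, 288 and 322 and 176, 176 and 146 CPM, and the synthase Fasn at 1672, 1700.4 and 2096 and 1190.0, 1178 and 1141 CPM (log2 differences -0.58 ± 0.07, -0.86 ± 0.07 and -0.64 ± 0.08). Acacb, the isoform at mitochondria whose product inhibits Cpt1, rose from 19.2, 18.05 and 18.7 to 37.1, 34.6 and 40.5 CPM (log2 difference 1.00 ± 0.08, adjusted p = 3.37e-09). Modifying enzymes went both ways. The desaturase Scd1 rose from 332, 322 and 337 to 1499, 1477 and 1036 CPM and the elongase Elovl1 from 25.4, 28.8 and 28.0 to 419, 359 and 312 CPM, while the desaturase Fads1 fell from 316, 333 and 325 to 132, 129.7 and 134 CPM and the elongase Elovl2 from 17.2, 17.0 and 14.3 to 2.98, 2.36 and 3.10 CPM. Srebf1, a master regulator of these genes, rose from 241, 207 and 261 to 521, 514 and 464 CPM.

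Of 23 genes of triglycerides and lipid droplets 16 were higher and 4 lower (median log2 difference 1.32). Gpat3, an acyltransferase of the opening step, went from 0.209, 0.206 and 0.405 to 192, 182 and 137 CPM (log2 difference 9.12 ± 0.21, adjusted p = 1.4e-16). Dgat2, which adds the last acyl chain of a triglyceride, rose from 22.1, 20.4 and 19.6 to 236, 206 and 174 CPM (log2 difference 3.31 ± 0.12), and the droplet coat Plin2 from 30.0, 24.7 and 29.2 to 214, 215 and 185 CPM. The lipase Pnpla2 and its activator Abhd5 rose as well, from 46.8, 43.9 and 42.7 to 124, 107 and 102 CPM and from 31.1, 26.6 and 29.8 to 143, 127 and 119 CPM, and G0s2, an inhibitor of Pnpla2, fell from 2.39, 1.84 and 2.37 to 0, 0.0611 and 0.251 CPM. Bscl2 (seipin), which shapes budding droplets, fell from 142, 155 and 147 to 42.3, 44.7 and 39.1 CPM. Hormone-sensitive lipase, Lipe, was at 8.78, 9.67 and 10.3 and 9.77, 9.61 and 13.3 CPM and was not called (adjusted p = 0.315).

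Phospholipid genes were 16 of 30 higher, 6 lower and 8 not called (median log2 difference 0.27). At the rate-setting step of phosphatidylcholine synthesis the 2 isoforms swapped: Pcyt1a rose from 46.4, 47.0 and 46.7 to 248, 224 and 195 CPM and Pcyt1b fell from 46.4, 50.5 and 51.0 to 3.17, 4.20 and 4.92 CPM (log2 differences 2.25 ± 0.08 and -3.58 ± 0.15). The remodelling enzyme Lpcat3 rose from 72.9, 74.7 and 82.4 to 398, 374 and 328 CPM, Lpcat4 fell from 31.6, 27.4 and 30.6 to 9.69, 6.87 and 8.94 CPM, and Lpcat1, at 148, 146 and 143 and 121, 132 and 138 CPM, was not called (adjusted p = 0.0517), but was called lower without D8 replicate 3 (0.0246) and with the replicate block (0.0386). Of 12 genes of choline oxidation and one-carbon metabolism 5 were higher, 4 lower and 3 not called (median log2 difference 0.00086), shares near those of all tested genes. The fallers included Ahcy, which hydrolyses S-adenosylhomocysteine, from 392, 416 and 422 to 75.6, 85.4 and 108 CPM (log2 difference -2.19 ± 0.10), and Mat2a, which makes S-adenosylmethionine, from 149, 177 and 203 to 109.9, 115 and 147 CPM (log2 difference -0.51 ± 0.13). The choline transporter Slc44a1 rose from 31.1, 26.7 and 28.8 to 116, 123 and 105 CPM. Chdh, which oxidises choline to betaine aldehyde, went from no count to 71.9, 60.6 and 61.9 CPM, at least 341-fold higher. Bhmt and Dmgdh, the next enzymes of betaine use, also went from no count to 5.58, 6.07 and 8.72 and 7.60, 8.27 and 11.96 CPM, at least 35.8- and 48.8-fold. Against rES they parted: Chdh was higher at D8 than the 0.189 CPM it averaged there, and Bhmt and Dmgdh were lower than the 47.9 ± 1.66 and 70.6 ± 2.40 CPM of rES.

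Of 21 sphingolipid genes 17 were higher and 4 lower (median log2 difference 1.02). Sptlc1 and Sptlc2, subunits of the enzyme that starts the pathway, rose from 29.5, 30.2 and 29.7 to 118, 109.7 and 81.2 CPM and from 59.1, 63.5 and 62.9 to 188, 185 and 147 CPM. Sphingomyelin synthases Sgms1 and Sgms2 rose from 22.9, 21.2 and 22.9 to 123, 121 and 114 CPM and from 1.12, 0.618 and 0.965 to 43.5, 36.4 and 26.3 CPM (log2 differences 2.42 ± 0.09 and 5.25 ± 0.22). Ceramide synthase Cers4 fell from 63.4, 60.8 and 65.5 to 16.1, 15.8 and 16.7 CPM. Cholesterol genes ran the other way, 16 of 22 lower, 5 higher and 1 not called (median log2 difference -0.84). Hmgcs1 and Lss, enzymes of the sterol route, fell: Hmgcs1 from 969, 1125 and 909 to 264, 274 and 258 CPM and Lss from 277, 327 and 309 to 87.7, 75.4 and 76.0 CPM (log2 differences -1.91 ± 0.08 and -1.93 ± 0.08). All but 4 cholesterol genes were highest in D8 replicate 1, and 14 of 22 were lower at D8 than at D5.

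**Figure D4:**
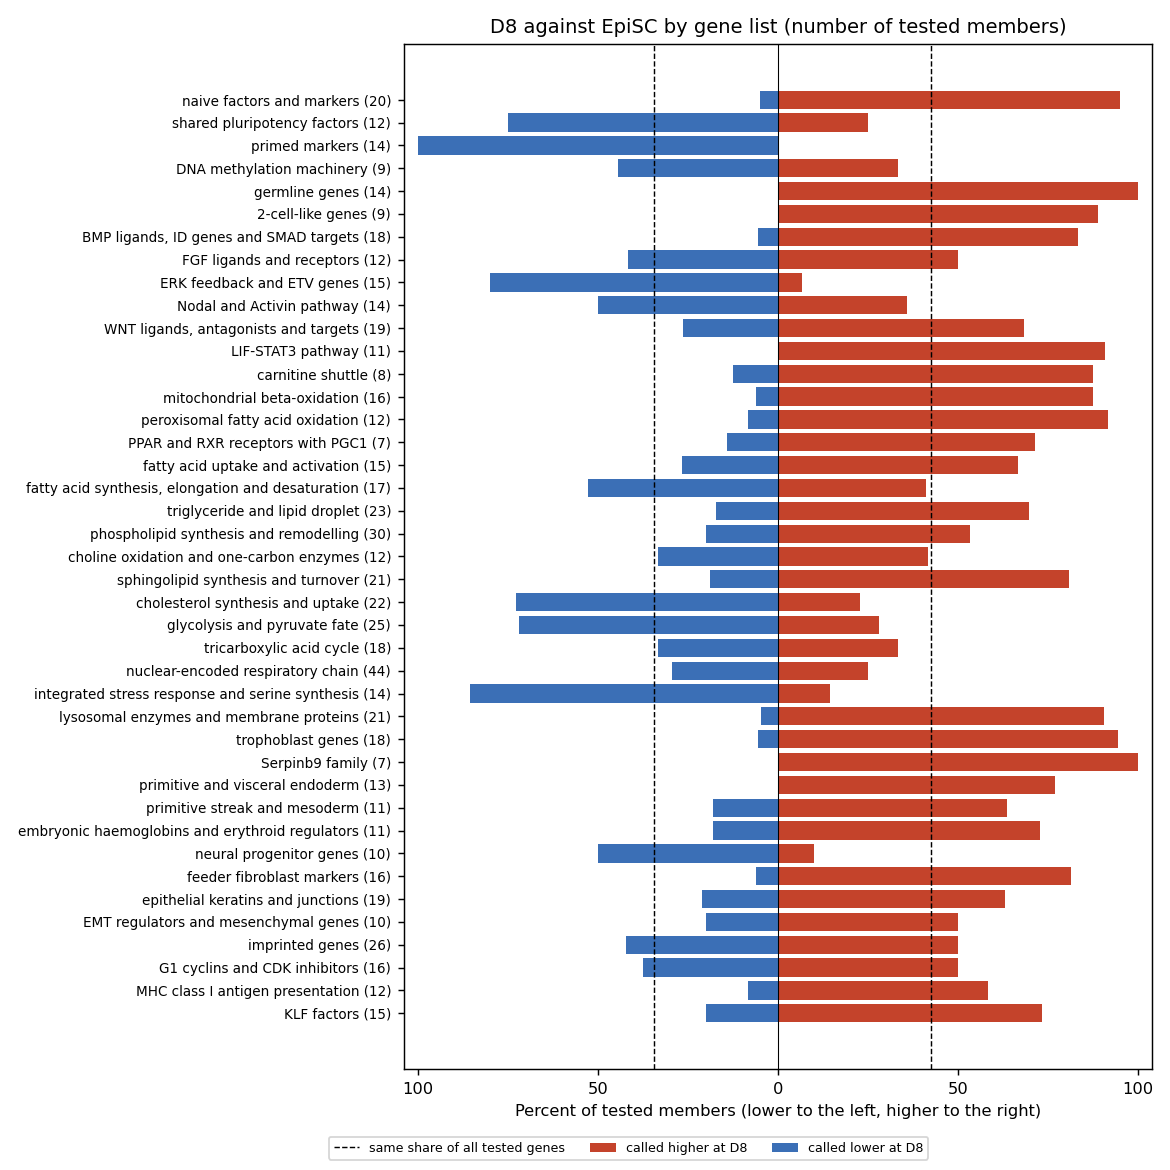
Share of the tested members of each list that were called higher (right, red) or lower (left, blue) at D8 than in EpiSC, with the number of tested members in brackets. Dashed lines give the same shares over all 17545 tested genes, 42.4% higher and 34.5% lower; the germline and Serpinb9 bars reach 100% on the right and the primed bar 100% on the left.

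Glycolytic genes fell, 18 of 25 lower and 7 higher (median log2 difference -1.17). Ldha, the lactate dehydrogenase subunit that favours lactate, fell from 2071, 2184 and 2231 to 299, 377 and 322 CPM (log2 difference -2.70 ± 0.08, adjusted p = 5.46e-15), and Ldhb, its counterpart, rose from 71.6, 74.0 and 69.4 to 497, 455 and 329.6 CPM (log2 difference 2.58 ± 0.11). Phosphoglycerate kinase Pgk1 fell from 1614, 1624 and 1825 to 195, 242 and 245 CPM and pyruvate kinase Pkm from 4367, 4558 and 4916 to 1106, 1144 and 1241 CPM. Of the hexokinases, Hk1 rose from 32.7, 31.2 and 39.5 to 124, 111 and 142 CPM and Hk2 fell from 209, 213 and 263 to 74.1, 95.4 and 110.3 CPM. The glucose transporter Slc2a1 rose from 776, 718 and 792 to 3769.6, 3470.2 and 2319.6 CPM and Slc2a3 fell from 878, 788 and 955 to 323, 413 and 561 CPM. Pdk1, a kinase that closes pyruvate dehydrogenase, fell from 130.2, 127 and 125 to 17.9, 23.5 and 22.9 CPM.

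The tricarboxylic acid cycle gave 6 of 18 higher and 6 lower, with Ogdh, a subunit of 2-oxoglutarate dehydrogenase, the largest rise, from 162, 155 and 159 to 563, 502 and 429 CPM, and Idh3a falling from 186, 199.6 and 190.0 to 101, 107 and 105 CPM. Of 44 nuclear-encoded respiratory chain genes 11 were higher, 13 lower and 20 not called, and the median log2 difference was -0.05. Their log2 differences lay between -1.08 for Ndufa2 and 0.69 for Ndufb9. Genes of the integrated stress response and serine synthesis fell, 12 of 14 lower (median log2 difference -2.01). Atf4, the factor of that response, fell from 556, 565 and 620.4 to 122, 133 and 185 CPM, its target Chac1 from 101, 84.5 and 112 to 2.77, 3.13 and 3.58 CPM, and Phgdh, which opens serine synthesis, from 573, 575 and 579.7 to 36.8, 39.4 and 53.2 CPM (log2 difference -3.74 ± 0.11, adjusted p = 2.09e-15). Psat1 and Mthfd2, of serine and folate metabolism, fell too (log2 differences -3.53 ± 0.09 and -3.40 ± 0.08). The 2 that rose were Atf3, from 39.3, 35.6 and 37.7 to 111, 103 and 76.7 CPM, and Ddit3 (Chop), from 15.4, 16.3 and 17.3 to 26.0, 21.9 and 22.9 CPM.

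Lysosomal genes were high at D8: 19 of 21 were higher than in EpiSC and Tfe3 was lower (median log2 difference 2.26). The list summed to 1490 to 1512 CPM in EpiSC and to 10587, 9636 and 7973 CPM in D8 replicates 1 to 3. Cathepsin B, Ctsb, rose from 56.1, 57.6 and 59.9 to 2256, 2012 and 1495 CPM (log2 difference 5.05 ± 0.12, adjusted p = 1.47e-16), and cathepsin D, Ctsd, from 189.7, 201 and 208 to 2187, 1958 and 1778 CPM (log2 difference 3.31 ± 0.07, adjusted p = 1.06e-16). The membrane protein Lamp1 rose from 289, 305 and 260.4 to 1854, 1668 and 1217 CPM. Tfeb, a factor that binds E-boxes in lysosomal promoters, rose from 1.85, 2.31 and 1.65 to 83.3, 68.5 and 60.6 CPM (log2 difference 5.17 ± 0.14, adjusted p = 1.24e-15), and the related Tfe3 fell from 126, 127 and 125 to 108, 91.7 and 94.5 CPM. The groups did not overlap for any of these. Against the other groups, 11 of 21 were higher at D8 than at D5 and 18 higher than in rES, Ctsb averaging 943 ± 39.9 CPM at D5 and 239 ± 6.95 CPM in rES.

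The E-box CACGTG was found for 7 of the 15 lysosomal genes with a promoter in the table (46.7%), and the longer form TCACGTGA, which contains it, in 4 of 15 (26.7%), against 0.907% of all genes with a promoter. No germline promoter held the longer form. For comparison the E-box was found for 4 of 15 genes of the cholesterol list and 2 of 12 of the naive list. Lysosomal promoters were described above as holding E-boxes that Tfeb binds, so a high share could be foreseen when the list was made. These shares too were not matched for CpG content, and the part of the E-box or of Tfeb in these changes was not tested. The promoters of Ctsd (chr7:142387828-142388077, minus strand) and of cathepsin A, Ctsa (chr2:164833523-164833772, plus strand), which rose from 52.3, 53.3 and 53.4 to 417, 363 and 363 CPM, are shown with the E-box in capitals, since Ctsd holds 2 copies, 98 and 245 bases before the start, and Ctsa 1 copy 12 bases before it. The starts are RefSeq's: Ctsa has 2 listed, the match lies before the one inside the gene and not before the outer one, and the single listed start of Ctsd lies inside the gene as GENCODE vM21 annotates it.
Ctsd: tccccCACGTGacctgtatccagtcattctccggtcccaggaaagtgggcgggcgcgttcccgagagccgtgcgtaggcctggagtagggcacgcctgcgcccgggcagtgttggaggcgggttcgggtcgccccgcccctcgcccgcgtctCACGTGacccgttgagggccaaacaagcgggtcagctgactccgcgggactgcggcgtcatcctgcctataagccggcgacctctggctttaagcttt
Ctsa: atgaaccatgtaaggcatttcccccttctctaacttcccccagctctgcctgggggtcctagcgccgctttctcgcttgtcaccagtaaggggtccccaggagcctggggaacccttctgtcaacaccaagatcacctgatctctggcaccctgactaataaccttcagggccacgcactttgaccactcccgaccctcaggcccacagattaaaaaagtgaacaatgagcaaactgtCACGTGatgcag

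Markers of other cell types were also present at D8. Of 18 tested trophoblast genes 17 were higher and Eomes was lower (median log2 difference 6.53). The list summed to 21.5 to 32.7 CPM in EpiSC and to 2211, 1961 and 1782 CPM in D8 replicates 1 to 3. Among regulators, Gata2 rose from 2.63, 2.88 and 3.74 to 509, 449.6 and 432 CPM (log2 difference 7.22 ± 0.16, adjusted p = 8.78e-17), Tfap2c from 1.78, 1.51 and 3.02 to 182, 171 and 186 CPM, and Cdx2 from no count to 1.61, 1.99 and 1.37 CPM. Among genes of differentiated placenta, the retroviral fusion protein Synb went from 0, 0 and 0.187 to 236, 229 and 152 CPM (log2 difference 11.10 ± 0.45, adjusted p = 1.74e-11), Gcm1, its regulator, from 0.450, 0.269 and 0.358 to 41.5, 48.2 and 35.3 CPM, and keratin Krt7 from 0.466, 0.333 and 1.18 to 469, 404 and 336 CPM. Rhox6 and Rhox9, X-linked homeobox genes and close paralogues, reached 167, 119.9 and 147 and 116, 115 and 110.2 CPM. Eomes, a regulator of trophoblast stem cells and of mesoderm, fell from 9.36, 9.24 and 11.1 to 2.47, 1.04 and 2.03 CPM, and Tpbpa, of the spongiotrophoblast, was too low to test. Against D5, 9 of 18 were lower at D8 and 3 higher. Against rES, 14 were higher.

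All 7 members of the Serpinb9 family, granzyme inhibitors with a cluster of rodent copies on chromosome 13, were higher at D8 (median log2 difference 10.06, or 9.21 with 2 at their bound). Serpinb9e went from 0, 0 and 0.218 to 346, 317 and 206 CPM (log2 difference 11.44 ± 0.53, adjusted p = 7.54e-11) and Serpinb9f from no count to 134, 124 and 79.4 CPM, at least 593-fold. Serpinb9b rose from 5.17, 4.67 and 5.79 to 461, 413 and 321 CPM, and the ancestral Serpinb9 from 5.64, 6.56 and 4.17 to 56.1, 55.0 and 37.2 CPM. All 7 were higher at D8 than in rES, where Serpinb9e had no count, and 5 were higher than at D5. They are close in sequence, so reads may be shared among them.

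Fibroblast markers gave 13 of 16 higher and Thy1 lower (median log2 difference 3.16), and summed to 120 to 165 CPM in EpiSC and to 1713, 2654 and 2045 CPM in D8 replicates 1 to 3. Collagen Col1a1 rose from 5.31, 4.67 and 8.86 to 513, 698 and 605 CPM (log2 difference 6.58 ± 0.26, adjusted p = 1.4e-13), Col3a1 from 1.99, 2.65 and 2.57 to 169, 387 and 207 CPM, and the proteoglycan Lum from 0.128, 0 and 0.0623 to 64.5, 169.8 and 93.1 CPM (log2 difference 10.18 ± 0.49, adjusted p = 1.65e-12). Replicate 2 was the highest D8 library for each. Thy1 fell from 8.20, 12.3 and 11.1 to 1.45, 1.09 and 1.41 CPM. Of endoderm markers 10 of 13 were higher and 3 not called: Gata4 rose from 0.0803, 0 and 0.125 to 15.1, 7.95 and 11.8 CPM, Gata6 from 0.273, 0.903 and 0.997 to 15.7, 15.2 and 18.04 CPM, and the basement membrane chain Lama1 from 4.70, 5.88 and 6.82 to 254, 196 and 228 CPM. Afp, a defining gene of the visceral endoderm, was called higher at 0, 0.204 and 0.267 CPM at D8, near the floor, and lost the call without any 1 EpiSC library or without D8 replicate 3 (adjusted p from 0.0514 to 0.0557). The part of any of these markers in the other results was not tested.

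Mesoderm genes were 7 of 11 higher and 2 lower, all but 1 of the risers below 10 CPM at D8: Hand2 went from no count to 14.7, 20.5 and 19.2 CPM, at least 95.4-fold, and brachyury, T, fell from 1.25, 1.32 and 1.29 to 0, 0.0407 and 0.157 CPM. Of 11 erythroid genes 8 were higher and 2 lower. Embryonic globin Hba-x went from no count to 17.6, 31.8 and 31.9 CPM and the erythroid factor Gata1 from 0, 0 and 0.0623 to 9.02, 10.3 and 7.57 CPM. Hba-x was lower at D8 than at D5, where it averaged 105 ± 7.60 CPM. Hba-a1 reached 22.1, 72.4 and 36.8 CPM, and has a near-identical copy in Hba-a2. Neural genes were 5 of 10 lower and 1 higher, with Nes (nestin) falling from 328, 317 and 402 to 11.1, 16.3 and 17.9 CPM and Map2 from 31.1, 25.4 and 24.8 to 0.798, 1.05 and 0.723 CPM. The 1 higher, Ncam1, went from 23.5, 21.2 and 21.5 to 22.9, 32.6 and 29.8 CPM and lost its call without EpiSC replicate 2, EpiSC replicate 3, D8 replicate 2 or D8 replicate 3 (adjusted p = 0.0687, 0.0619, 0.130 and 0.0632).

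Epithelial genes gave 12 of 19 higher and 4 lower. Cadherin Cdh1 rose from 617, 614 and 647 to 1164, 1025 and 1082 CPM, keratin Krt8 from 118, 111 and 138 to 2467, 2206 and 1847 CPM (log2 difference 4.15 ± 0.11, adjusted p = 7.17e-16), and claudin Cldn4 from 4.01, 3.53 and 8.63 to 1913, 1643 and 1401 CPM (log2 difference 8.25 ± 0.28). Claudins Cldn6 and Cldn7 fell, from 98.2, 105 and 119 to 55.4, 47.6 and 41.7 CPM and from 30.0, 30.1 and 31.2 to 4.97, 5.77 and 5.34 CPM, as did Epcam, from 388, 382 and 405 to 204, 185 and 185 CPM. Of 10 EMT and mesenchymal genes 5 were higher and 2 lower. Fibronectin, Fn1, rose from 212, 201 and 278 to 1239.7, 1589.6 and 1772 CPM and the protease gene Mmp2 from 21.5, 20.9 and 22.97 to 40.2, 57.7 and 53.1 CPM. The 2 called lower were Vim, at 333, 334 and 339.8 CPM in EpiSC and 274, 329 and 244 CPM at D8, and Zeb1, at 19.2, 17.5 and 17.7 and 11.6, 15.3 and 16.0 CPM. Both calls were lost with RLE scaling, with DESeq2, with the 2 groups fitted alone and without D8 replicate 1, that of Vim also without D8 replicate 3 and that of Zeb1 without EpiSC replicate 1 (adjusted p from 0.0698 to 0.181).

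Imprinted genes, expressed from 1 parental copy, gave 13 of 26 higher and 11 lower, shares near those of all tested genes, and included Peg10 and Igf2. Igf2, a growth factor expressed from the paternal copy, rose from 56.9, 49.1 and 74.8 to 11772, 11203 and 9278 CPM (log2 difference 7.48 ± 0.17, adjusted p = 1.39e-16). H19, its maternally expressed neighbour, rose from 7.74, 7.34 and 11.4 to 1405, 1800.0 and 1388 CPM (log2 difference 7.43 ± 0.24), and Peg10, a retrotransposon-derived gene needed for the placenta, from 143, 137 and 142 to 16539, 16270.2 and 11015 CPM (log2 difference 6.70 ± 0.16, adjusted p = 2.6e-16). Together the list summed to 3377 to 3496 CPM in EpiSC and 27741 to 36704 CPM at D8. The noncoding RNAs of the Dlk1-Dio3 region fell together: Meg3 from 66.6, 67.7 and 80.3 to 1.30, 2.75 and 2.50 CPM, Rian from 199, 207 and 222 to 11.2, 16.8 and 10.7 CPM, and Mirg from 18.01, 18.02 and 22.9 to 0.505, 0.519 and 1.15 CPM (log2 differences -5.00 ± 0.29, -4.01 ± 0.25 and -4.72 ± 0.29). Dlk1, the protein-coding gene at its border, was not called at 2.28, 2.25 and 1.79 and 2.51, 3.06 and 1.76 CPM (adjusted p = 0.561).

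Cell cycle genes of the G1 phase divided, 8 of 16 higher and 6 lower, shares near those of all tested genes. The inhibitors and drivers given here are part of the list, and its other members are not reported here. The inhibitors Cdkn1c, Cdkn2a and Cdkn2b rose, Cdkn1c from 0.417, 0.650 and 0.311 to 23.2, 21.0 and 22.6 CPM and Cdkn2a from 1.69, 1.43 and 1.46 to 35.8, 38.0 and 36.7 CPM (log2 differences 5.51 ± 0.27 and 4.57 ± 0.10), and Rb1 rose from 17.3, 17.7 and 14.2 to 165, 167 and 109 CPM. The drivers Ccnd1, Cdk6 and Ccne1 fell, Ccnd1 from 236, 241 and 253 to 23.3, 23.3 and 37.2 CPM, Cdk6 from 199, 209 and 224 to 20.1, 23.1 and 27.2 CPM, and Ccne1 from 166, 188 and 174 to 34.4, 38.7 and 47.5 CPM. Genes of MHC class I presentation were 7 of 12 higher and 1 lower. The light chain B2m rose from 37.8, 42.2 and 38.4 to 239, 206 and 165 CPM, the classical heavy chain H2-K1 from 32.8, 25.1 and 41.9 to 214, 171 and 144 CPM, the nonclassical H2-T23 from 0.161, 0.127 and 0.249 to 37.9, 36.7 and 31.6 CPM, and the peptide-loading protein Tapbp from 11.7, 10.7 and 11.7 to 209.7, 172 and 161 CPM. The H2 genes are polymorphic paralogues, so their separate counts are uncertain. Of 15 KLF factors 11 were higher and 3 lower. Beside Klf2, Klf4 and Klf5, Klf6 rose from 118, 98.2 and 116 to 478, 466 and 373 CPM, and Klf12 and Klf13 fell (log2 differences -2.65 ± 0.22 and -0.95 ± 0.09).

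Among all genes with at least 10 CPM in a group, the 10 largest rises in log2 difference were Slc22a3, Serpinb9f, Muc15, Serpinb9e, Slc16a12, Sgk2, Synb, Chdh, Zfp42 and Pramef12. The ranking used fitted log2 differences, in which genes without a count in a group were not set at their bound. At their bounds, Serpinb9f, Muc15, Slc16a12, Sgk2, Chdh and Zfp42, without a count in EpiSC, lay at 8.33 to 9.21. Tbx3, with a count in EpiSC and not among the 10, had 10.69. Slc22a3, an organic cation transporter imprinted in placenta, went from 0, 0.0792 and 0 to 278, 301 and 185 CPM (log2 difference 12.12 ± 0.36, adjusted p = 3.57e-14). The kinase gene Sgk2 reached 83.4, 76.4 and 53.8 CPM and the membrane mucin Muc15 104, 96.6 and 66.3 CPM, both from no count, at least 375- and 468-fold higher. The 10 largest falls were Klhl4, Enpp2, Vrtn, Npcd, Fam131b, Jph4, Kcnh8, Zcchc12, Mmp25 and Car14. Klhl4, of the kelch family, went from 299, 279.7 and 284 to 0.0651, 0.0407 and 0 CPM (log2 difference -12.08 ± 0.34, adjusted p = 1.59e-14), and Enpp2 (autotaxin), which makes lysophosphatidic acid, from 57.7, 54.1 and 46.7 to 0, 0 and 0.110 CPM (log2 difference -9.72 ± 0.53, adjusted p = 6.11e-11). Npcd ranged from 4.03 to 24.0 CPM within EpiSC and had no count at D8. At their bounds, Npcd and Kcnh8, both without a count at D8, lay at -6.35 and -5.90. Dusp6, not among the 10, had -7.93. Of the 10 rises only Zfp42 was called lower at D8 than in rES, and none of the 10 was called lower at D8 than at D5. Chdh and Slc16a12 had lower means at D8 than at D5 without a call, 64.8 against 77.8 and 75.3 against 82.3 CPM.

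By difference in CPM, a ranking that transcript length enters because CPM are not per length, the largest rises were Peg10, Igf2, Gjb2, Slc2a1 and Psap. Gjb2, a gap junction protein, went from 3.002, 2.03 and 5.96 to 4037, 3515 and 2388 CPM (log2 difference 9.81 ± 0.36, adjusted p = 4.91e-14), and Psap, the precursor of lysosomal saposins, from 203, 203 and 219 to 2702, 2351 and 2158 CPM. The largest falls in CPM were Eef1a1, Hsp90ab1, Pkm, Tuba1a and Ldha. Elongation factor Eef1a1 moved from 14341, 14315 and 13466 to 9599.7, 8883 and 9458 CPM, a log2 difference of only -0.59 ± 0.06, and the chaperone Hsp90ab1 from 7273, 7469.7 and 7683 to 3578, 3483 and 4036 CPM. Eef1a1 has many near-identical processed copies, so its count may be shared.

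More symbols appeared than vanished. No count in any EpiSC library and a count in all 3 D8 libraries was seen for 1262 symbols, 403 of them at 1 CPM or more on average and 50 at 10 CPM or more. The reverse, a count in all EpiSC libraries and none at D8, was seen for 152 symbols, 20 and 2 of them at those levels. By gene type, 42.2% of 315 lincRNA genes were higher at D8 and 15.2% lower, against 43.2% and 35.9% of 15999 protein-coding genes. The shares were 32.7% and 12.2% for 254 antisense genes, and 24.1% and 23.6% for 191 processed transcripts. They were not matched for expression level, which affects whether a fall can be called. Over chromosomes the share called higher ran from 36.6% on chromosome 17 to 47.8% on the X chromosome.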

How the data were processed

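Total RNA depleted of ribosomal RNA was sequenced as paired-end reads from 18 libraries in 6 groups of 3. The submitters' processing notes name bcl2fastq, Trim Galore, HISAT2 and the mm10 build, without versions. How reads were counted, with which annotation and with what strand setting, is not given in the sources used here. The authors' deposited table holds whole numbers for 25239 symbols, treated here as estimated counts because low values bunch at 4 (a median of 314.5 genes per library at 4, against 157 at 3 and 105.5 at 5). A bunch at 8 is weaker, with 163 genes against 152.5 at 7 and 109 at 9. A count of 1 had 198.5 genes, so what 1 count stands for is not known. Overlapping or antisense genes and close copies may share reads.

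Counts were fitted over all 18 libraries with edgeR 4.0.16 in R 4.3.3 (TMM scaling, filterByExpr, quasi-likelihood F test, prior count 2, Benjamini-Hochberg adjusted p under 0.05), leaving 17545 genes. CPM use the TMM-scaled totals. The ± after a log2 difference is an approximate standard error, the difference over the root of the F statistic; the ± after a mean is the SD. The fit was tested on simulated data in which 50 genes each were changed 1.5-, 2-, 4- or 8-fold at D8. All other genes were equal in the 6 groups. It recovered 52%, 72%, 98% and 96% of these genes, and 1.85% of calls were false. Far more genes differed in the data, so the simulation cannot show how the fit did there.

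The comparison, its 41 gene lists and the genes named were chosen with earlier results of these data known. Beside genes of central interest, the rule for naming took the 10 largest log2 differences each way among called, non-overlapping genes at 10 CPM or more (predicted symbols skipped), the 5 largest differences in CPM each way, and up to 4 called members each way per list at 5 CPM or more with the most abundant uncalled one. Not all genes it gave are described, a few list members are counted but not reported here by name, and some list members outside it are named for their role. Bounds used a floor of 12 counts. No pairing of libraries by replicate number was detected: over 45 same-number pairs, deviations from group means correlated at -0.06 to 0.05, and 6 of 18 libraries matched their own number best. Cultures handled in parallel without a shared signal would be missed by this check. Alternatives were RLE scaling, no filter, DESeq2 1.42.0, the replicate number as a block, the 2 groups alone and counts divided by 4. Further alternatives left out in turn each library of the 2 groups compared, so no D3 or ESC library was left out. A fit with D8 replicate 2 thinned was added after seeing the data. Promoters came from RefSeq (GRCm38.p6). Day 3 and ESC libraries entered the fit and are otherwise given as levels.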

Additional observations from a re-analysis of the deposited data

Results flagged for a closer look

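The effect against EpiSC pointed in opposite directions at D5 and D8, with both differences called, for 6 genes described above, and the difference between D8 and D5 was itself called for each (edgeR, all adjusted p given are from the fit over all genes). Both effects share the EpiSC libraries.

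Nanog differed from EpiSC by -1.28 on the log2 scale at D5 (adjusted p = 9.00e-07) and by 2.77 at D8 (2.78e-11), a difference of 4.05 between D8 and D5 (1.53e-11). Its means were 40.9, 16.8 and 278.7 CPM in EpiSC, D5 and D8. Tdgf1 differed by -0.19 and 1.46, a difference of 1.65 (4.82e-11). Fgf4 differed by -2.85 and 0.93, a difference of 3.78 (6.82e-10), with means of 48.6, 6.73 and 92.8 CPM. Lefty2 differed by -1.05 and 3.17, a difference of 4.23 (1.59e-08). Mmp2 differed by -0.35 and 1.21, a difference of 1.56 (4.18e-08). Smad6 ran the other way, above EpiSC at D5 by 0.81 and below it at D8 by -0.47, a difference of -1.28 (2.58e-08), with means of 9.78, 17.2 and 7.06 CPM. These 6 are 2.01% of the 298 tested genes that the naming rule gave. Over all 17545 tested genes the same pattern was met by 423 (2.41%), 260 higher at D8 and lower at D5 and 163 the reverse, so it was not more frequent among the named genes.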

How the results depend on the processing

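No count of called genes moved by over 1.5 times under any alternative run. Genes higher and lower at D8 than in EpiSC numbered 7730 and 5681 with RLE scaling, 7708 and 5741 with DESeq2, 7483 and 5990 without the filter, 6907 and 6055 with counts divided by 4, 6858 and 5895 with the 2 groups fitted alone, and 7437 and 6038 with D8 replicate 2 thinned. Leaving out 1 EpiSC or D8 library gave 7107 to 7350 higher and 5685 to 6006 lower. With the replicate block, 7297 were higher and 5989 lower, and among the genes named it changed only the call of Lpcat1. The share of calls that were higher ran from 53.3% to 57.6%, and the median log2 difference of all genes from 0.11 to 0.27. Against D5 that share was 53.2%, or 59.2% with RLE scaling.

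List counts that moved by 1.5 times or more were few: EMT genes lower (0 to 3 against 2), neural genes higher (0 without EpiSC replicate 3, D8 replicate 2 or D8 replicate 3), BMP genes lower (2 without D8 replicate 2), PPAR genes lower (2 against 1 without D8 replicate 3), and DNA methylation genes lower (6 without D8 replicate 3). BMP genes higher ran from 11 to 16. Primed markers lower were 13 or 14 and shared factors lower 8 or 9. Counts of the naive, germline, trophoblast, Serpinb9, lysosomal, glycolytic, stress response, ERK and LIF lists were the same under every alternative.

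Of 241 tested genes named, 10 changed a call or a sign in some alternative. Signs changed only for genes not called at differences near 0. Tet1 was at 0.075 with RLE scaling, at 0.070 with DESeq2, and ran from -0.40 to 0.23 when 1 library was left out. Nodal ran from -0.22 to 0.20 over those fits, being -0.06 and -0.0046 without EpiSC replicates 1 and 2. Sox2, Vim, Zeb1, Ncam1 and Afp lost calls as given above, and the causes were not tested. The 6 differences between D8 and D5 kept direction and call in all 12 alternatives. Counts of 1 to 3 occur too, so a count unit of 4 is an assumption. If it holds, it limits what can be said below about 0.2 CPM, and 3 libraries a group limit the precision of every difference.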

Other observations

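Within D8, the genes with the widest range between libraries at 20 CPM or more included the ribosomal protein genes Rps27, Rps27rt and Rps28 and the RNA-binding protein gene Hnrnpa1, a description chosen by that range. Rps27 was at 236, 7.99 and 181 CPM in D8 replicates 1 to 3 and its near-identical copy Rps27rt at 29.4, 303 and 11.05 CPM. Over all 18 libraries Rps27 ran from 1.38 to 467 CPM and lay above Rps27rt in 9, while their sum ran from 192 to 516 CPM. This pair was picked after its values were seen. Hnrnpa1 was at 114, 420 and 167 CPM at D8 and at 485, 520 and 525 CPM in EpiSC. The 2 genes of the 10 without a count in EpiSC were Hba-a1 and Gm20716, the latter at 96.8, 181 and 58.8 CPM at D8.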
